A study of Mus musculus with 6 samples.

Results

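The catalogue probes described here were flagged as well above background on all 3 myotube arrays, and on none of the 3 myoblast arrays, of C2C12 cells. C2C12 is an established mouse muscle line, whose dividing myoblasts withdraw from the cell cycle and fuse into multinucleated myotubes when serum is lowered. The 3 myoblast cultures had grown in DMEM with 10% fetal bovine serum, with a confluence of 80 to 90% given for them. The 3 myotube cultures had been moved at 80 to 90% confluence to DMEM with 2% horse serum, with the length of that culture not stated in these sources. Both groups are the same unmodified line, and each array stands for 1 of the experiments that the submitters call independent. The members were chosen by the scanner software's own flag for signal well above background, so the rule has already used their difference between the cell states. Of 60915 probes on the array, 58141 carry a number of the main catalogue (names starting ASMM10P), and 365 of those met the rule (0.628%). Each catalogue probe has 1 spot on the array.

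In muscle cells, myogenic transcription factors such as MyoD and myogenin switch on a set of genes at differentiation that are silent or very low in dividing myoblasts. These encode parts of the contractile apparatus, of the fusion machinery and of calcium handling. Long noncoding RNAs, transcripts that encode no protein, are switched on as well, and several of them act on the same factors. The array was designed for long noncoding RNA and also holds probes for coding transcripts, and a catalogue number does not say which of these a probe stands for. The files pair no member with a gene, a sequence or a genome position, so none of those is given. Of the 32 myotube markers and 11 myoblast markers looked for, 0 had a named probe, and the cell states could not be checked against them.

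Most members gave a weak signal in myotubes. Levels are log2 of the processed signal minus the 75th percentile of the array, so 0 is that percentile. The signal of a probe depends on its own hybridization as well as on its transcript, so levels of different probes do not rank transcripts by amount. In these bulk cultures, fewer cells with a transcript and less of it per cell cannot be told apart. On myotube arrays 1, 2 and 3 the median member stood at −2.28, −2.27 and −2.40. The 31254 catalogue probes well above background on all 3 myotube arrays had medians of −0.13, −0.14 and −0.13 there. On myoblast arrays 1, 2 and 3 the median member stood at −5.74, −5.99 and −5.51. The signal of the typical member thus lay in the lower part of the detectable range in myotubes and close to the bottom of the scale in myoblasts.

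By mean myotube level, 66 members lay below −3, 152 from −3 to −2, 68 from −2 to −1, 44 from −1 to 0 and 35 above 0. Of all catalogue probes detected on the 3 myotube arrays 48.3% were above 0, against 9.59% of the members. In units of processed signal, the median member read 88.5, 79.3 and 107 on myotube arrays 1, 2 and 3, with a median error by the software of 14.3%, 12.4% and 12.9%. On myoblast arrays 1, 2 and 3 it read 6.82, 5.92 and 8.23, with errors of 43.8%, 89.1% and 100%. Myoblast readings of that size carry little information on how low a transcript was.

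For that reason each difference is given as a lower bound. The mean myotube level was set against the mean myoblast level. Myoblast readings below the lowest level that counted as well above background on their array were first raised to it, and readings above it were kept. That level is not a strict cut: on myoblast array 3, where it was −3.41, a member read −3.35 without the flag. By the processed signal, the median member was at least 3.29-fold higher in myotubes (1.72 in log2), and the quartiles of the bound were 2.30-fold and 7.33-fold. With normexp background correction of the median signal, the median difference between the groups was smaller than that bound, at 0.94 in log2. That setting adds an offset of 50 to every signal, more than the processed signal of the median member on each myoblast array. An added constant makes log2 differences between dim readings smaller, and its share here was not tested. The bounds thus hold for the processed signal. The bound reached 2-fold for 311 members, 4-fold for 155, 16-fold for 37 and 64-fold for 11. With normexp background correction of the median signal, 156 members reached 2-fold, and with the rule applied without myoblast array 1 it was 472 probes. Since the rule chose the members on this contrast, these values describe them and test nothing.

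The strongest signal was that of ASMM10P050526. It stood at 4.52, 4.20 and 4.21 on myotube arrays 1, 2 and 3, and at −6.92, −6.16 and −5.53 on the myoblast arrays, where its signal was not significant against background on any array. It was at least 334-fold higher in myotubes, the largest bound of the 365. ASMM10P048728 followed at 3.17, 4.01 and 3.92 in myotubes and −7.16, −6.27 and −5.62 in myoblasts, at least 219-fold higher. For it, myotube array 1 was the lowest of the 3, whereas for the first probe array 1 was the highest.

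ASMM10P036028 stood at 2.92, 2.39 and 2.49 in myotubes and at −6.91, −6.13 and −5.50 in myoblasts, at least 102-fold higher. ASMM10P038321 had myotube levels of 2.48, 2.31 and 2.19 and a bound of at least 84.3-fold. ASMM10P009060 had 2.48, 2.34 and 2.14 and a bound of at least 84.1-fold. For each of these 3 probes array 1 was the highest in myotubes.

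The last 3 of the 8 largest bounds were similar in size. ASMM10P044991 read 2.62, 1.94 and 2.08 in myotubes, at least 78.1-fold higher. ASMM10P019165 read 2.23, 2.28 and 2.16, at least 76.8-fold higher, with the narrowest range over the myotube arrays of these 8 probes. ASMM10P031683 read 2.43, 2.11 and 1.86, at least 73.9-fold higher. The groups did not overlap for any of these 8 probes, which held for all 365 members, as the rule all but requires (with normexp, for 355 of the 364 with values), and 18.6% of all catalogue probes showed the same separation in this direction.

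The word "only" in a description of these probes as detected only in myotubes depends on the flag. Under the software's less strict flag, which marks signal that is positive and significant against background, 86 members were significant on no myoblast array. Of the rest, 86 were significant on 1 myoblast array, 91 on 2 and 102 on all 3. By array, 273 members were significant on myoblast array 1, 191 on array 2 and 110 on array 3. The whole catalogue had the same order by the stricter flag, with 39454, 34863 and 31454 probes well above background on these arrays. The median bound was 4.22-fold for members significant on no myoblast array, 3.43-fold on 1, 3.83-fold on 2 and 2.58-fold on all 3, which is not an even decline. Of the 37 members with bounds of 16-fold or more, 13 were significant on no myoblast array, 7 on 1, 14 on 2 and 3 on all 3, ASMM10P010524 among the last.

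Which probes were members also turned on myoblast array 1. The lowest level that counted as well above background was −4.86 on that array, against −3.95 and −3.41 on myoblast arrays 2 and 3 and −3.42, −3.80 and −3.75 on myotube arrays 1, 2 and 3. Another 432 catalogue probes were well above background on all myotube arrays and on exactly 1 myoblast array, and for 421 of these that array was myoblast 1. Without myoblast array 1 the rule would have taken 786 probes. The median levels of these 432 probes were −2.54, −2.49 and −2.54 on the myotube arrays.

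Some probes just outside the rule gave strong myotube signals. ASMM10P041933 stood at 5.45, 5.54 and 5.43 in myotubes and −3.63, −4.17 and −4.98 in myoblasts. ASMM10P041931, 2 numbers before it, stood at 4.49, 4.58 and 4.38 in myotubes and −4.26, −4.82 and −4.94 in myoblasts. ASMM10P052285 had a mean of 3.76 in myotubes, with 3.60 on its lowest array, and −4.22, −4.69 and −5.31 in myoblasts. Each was kept out by myoblast array 1 alone.

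On the other side, 172 catalogue probes were well above background on 2 of the 3 myotube arrays and on no myoblast array. Myotube array 1 was among the 2 for 33 of them, array 2 for 161 and array 3 for 150. Those with the highest mean were uneven: ASMM10P025518 read 0.47, −0.48 and −5.30 on the myotube arrays, and ASMM10P054189 read 0.37, −0.18 and −6.02. In both, myotube array 3 was at the level of the myoblasts. ASMM10P034521 read −0.61, −3.36 and −3.64, with array 1 far above the others.

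Just inside the rule, the lowest myotube reading was that of ASMM10P018760, at −2.93, −3.74 and −3.53 in myotubes and −6.59, −5.16 and −5.28 in myoblasts, at least 1.60-fold higher. ASMM10P013546 read −2.41, −3.73 and −3.18 and ASMM10P039883 read −2.67, −3.44 and −3.69. The highest myoblast reading of a member was that of ASMM10P030582, which read −5.12, −4.38 and −3.35 in myoblasts against −2.46, −2.24 and −2.24 in myotubes. ASMM10P002915 reached −3.41 and ASMM10P015592 reached −3.43 on myoblast array 3. The last of these read −6.95 and −6.28 on the other myoblast arrays, so its high value rests on 1 spot, and in myotubes it read 1.27, 0.99 and 0.78.

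In the fit over all 35487 probes that were well above background on at least 3 arrays, limma called 23.4% higher in myotubes at an adjusted p under 0.05. All 365 members entered that fit through their myotube arrays, and 363 were called higher. With the scan as a block, where the difference rests on myotube array 1 against the 3 myoblast arrays, 349 were called, against 22.3% of all probes tested. The count follows from the rule and is no support for it. The 2 members not called, named here after their values were seen, were ASMM10P027711 (limma adjusted p = 0.0726) and ASMM10P017515 (limma adjusted p = 0.0637). Their myoblast levels ranged from −5.23 to −3.45 and from −5.53 to −3.61, with SDs of 0.93 and 1.03 in myoblasts against 0.35 and 0.25 in myotubes (n = 3 each).

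Among themselves the 3 myotube arrays agreed closely for most members. The range over the 3 arrays had a median of 0.38, against 0.37 for all catalogue probes detected on them, and exceeded 1 for 13 members (3.56%, against 4.07%). The median absolute difference was 0.15 between arrays 2 and 3, 0.30 between 1 and 2 and 0.30 between 1 and 3. The gap of array 1 to the others was about as large in all catalogue probes detected on the 3 arrays (0.28 to each). Array 1 was the highest for 175 and the lowest for 131 of the 364 members with a level on all 3. ASMM10P042889 was left out of those, since its spot on array 3 was marked as an outlier. Array 1 was thus the highest for 48.1% of members, against 46.1% of all catalogue probes detected on the 3 arrays. It was the lowest for 36.0%, against 38.1%. Array 3 was the highest for 9.89% of members, against 18.3%, and the lowest for 46.7%, against 35.9%. These shares were not tested.

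Myotube array 1 had been scanned together with the 3 myoblast arrays, and arrays 2 and 3 in scans of their own. From array 1 alone, within that scan, the median bound was 3.45-fold and 326 members reached 2-fold. From arrays 2 and 3 the median was 3.33-fold and 303 members reached 2-fold. The bound of ASMM10P050526 was 385-fold from array 1 and 311-fold from arrays 2 and 3, and that of ASMM10P048728 was 152-fold and 263-fold. Every member had to pass the flag on each of these arrays, so bounds from them are descriptions, and the part of the scan in the values was not tested.

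The 4 members that varied most in myotubes were all higher on array 1. ASMM10P055487 read −0.89, −3.40 and −3.06, a range of 2.51. ASMM10P029891 read −1.81, −3.17 and −3.38, ASMM10P007993 read −1.96, −3.18 and −3.44, and ASMM10P001065 read −1.96, −3.40 and −3.11. All 4 had significant signal on all 3 myoblast arrays. Of the 13 members with a range over 1, 9 were higher and 4 lower on array 1 than on the mean of the others. Array 1 stood more than 1 above that mean for 1.64% of members, against 2.18% of all catalogue probes detected on the 3 arrays. It stood more than 1 below that mean for 0 members, against 0.227% of those probes. The highest mean myotube level among the 13 was −1.12, so none of the 35 members above 0 was among them.

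At the other end, ASMM10P038606 read −3.02, −3.03 and −3.02 in myotubes, and ASMM10P012424 read −2.44, −2.42 and −2.43. ASMM10P000517 (−2.74, −2.73 and −2.76) and ASMM10P011203 (−3.05, −3.09 and −3.07) were as even. These 4 had the narrowest ranges of all members.

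Members tended to sit near each other in the catalogue. The sources used here do not say how the numbers were assigned. In all, 31 members had another member as the next number up or down, in 15 runs: 1 run of 3 and 14 of 2. Of the 722 catalogue probes 1 number away from a member, 4.29% were members themselves, against 0.628% of the whole catalogue. The share was 2.08% at a distance of 2 numbers, 1.38% at 3, 2.48% at 4, 0.552% at 5, 1.1% at 10, 0.549% at 20 and 0.278% at 50. It was 1.93% at 100, so the decline was not even, and these shares rest on 2 to 31 members each. They are descriptions without a test.

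The same held for neighbours that were not members. Of the 408 such probes 1 number away that entered the fit, 17.2% were called and at least 2-fold higher in myotubes, against 9.12% of all tested catalogue probes. The share was 15.9% at 2 numbers, 13.5% at 3, 12.3% at 4, 12.2% at 5, 10.2% at 10, 5.67% at 20, 10.7% at 50 and 7.76% at 100. It thus fell over the first numbers and then varied on both sides of the share of all tested probes. Across all tested catalogue probes, the myotube change of a probe and that of the next number had a Pearson's r of 0.17 over 22592 pairs. It was 0.09 at 2 numbers and 0.02 at 10, a weak relation that faded within a few numbers. The pairs share the same arrays, and the relation is given without a test.

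The run of 3 was the densest. ASMM10P019163 read −1.07, −1.24 and −1.27 in myotubes, ASMM10P019164 read 0.83, 0.98 and 0.78, and ASMM10P019165 is given above. ASMM10P019166, the next number, was no member because 2 myoblast arrays had it well above background. It rose from −3.32 ± 0.21 to 1.25 ± 0.09 (SD, n = 3 each; limma adjusted p = 8.3e-07). ASMM10P019167 was again a member and read 0.07, 0.53 and 0.37 in myotubes. All 5 numbers in a row were thus higher in myotubes, which for all but ASMM10P019166 follows from the rule. ASMM10P019162 and ASMM10P019168 on either side were well above background on no array.

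Near ASMM10P048728 lay another strong change: ASMM10P048726, 2 numbers before it, read 6.77, 7.09 and 6.90 in myotubes and −2.63, −2.19 and −2.49 in myoblasts. The number between them, ASMM10P048727, stood at −1.92 ± 0.18 before differentiation and −2.08 ± 0.13 after it (SD, n = 3 each), so a neighbour did not always move along. ASMM10P050527, next to ASMM10P050526, went from −0.21 ± 0.11 to 3.66 ± 0.19, whereas ASMM10P050525 on its other side went from 5.81 ± 0.05 to 4.47 ± 0.16 (SD, n = 3 each). For ASMM10P036028 the next number up, ASMM10P036029, was lower in myotubes, at 0.60 ± 0.10 before and −1.89 ± 0.18 after (SD, n = 3 each).

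Within the other runs, consecutive members could have very different bounds. ASMM10P042241 read 1.90, 2.22 and 2.03 in myotubes and ASMM10P042242 read −2.63, −2.47 and −2.79, with bounds of 69.6-fold and 2.72-fold and a further member, ASMM10P042239, at 1.39, 1.24 and 1.14. ASMM10P022505 read 2.17, 1.86 and 1.76 beside ASMM10P022506 at −3.10, −2.68 and −2.67, with bounds of 64.1-fold and 2.39-fold. ASMM10P010524 read 0.90, 1.41 and 1.36 beside ASMM10P010523 at −1.22, −0.98 and −0.99, with bounds of 39.3-fold and 8.05-fold. None of the 16 pairs of consecutive members lay within 2 rows and columns on the array surface, the closest being 3 apart and the median pair 134.5 apart, by rows or columns, whichever was more.

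Along the catalogue, members made up 0.788% of the probes detected on all myotube arrays in numbers 1 to 9999 and 1.68% in 10000 to 19999. The shares were 1.22%, 1.54% and 0.922% in the next blocks of that length and 0.944% from 50000 on. Members were thus found in every block. Differences between blocks were not tested.

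The set with the opposite pattern, 523 catalogue probes flagged on all 3 myoblast arrays and none of the myotube arrays, was larger but had smaller bounds. The median bound there was 1.86-fold, against 3.29-fold for the members. A bound of 2-fold was reached by 44.9% of that set and 85.2% of the members, one of 16-fold by 2.29% and 10.1%, and the largest was 41.7-fold. These shares were not tested against each other. The sizes of the sets and these shares also depend on myoblast array 1. With the rule applied without it, 786 probes were taken in place of the 365 members, and 472 of them reached 2-fold. The opposite set without that array is not given here. The lowest levels that counted as well above background differ between the arrays, as given above, and a bound for a probe dim in myotubes is set against higher limits than one for a probe dim on myoblast array 1.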

How the data were processed

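Per the file headers, the 1-colour (Cy3) scans were processed in Agilent Feature Extraction 11.0.1.1, for a design that refers to mm9. The deposited intensity values are background-subtracted on each array alone. The authors' deposited series table holds log2 values, by their shape quantile-normalized, and served as an alternative. Levels were log2 processed signal minus each array's 75th percentile, without control spots, 300 negative-control spots and outlier spots. A probe was well above background where the mean flag of its spots exceeded 0.5. Probes so flagged on at least 3 arrays were tested with limma 3.58.1 in R 4.3.3. Benjamini-Hochberg adjustment was over all of them, with a threshold of 0.05. The step was tested on simulated normal values, which held no scan effect and no lower limit for dim signals. The rule, the named probes (extremes by bound, level, range and run) and the lists were chosen with earlier results of these data known. Alternatives were quantile normalization, normexp, other flags, the series table, blocks for replicate and scan, and leaving out each array. The gMeanSignal column planned for normexp was replaced by the median signal. Whether replicates came from separate cultures is stated only as independent experiments, and the number of arrays limits the precision. Tables were made in Python 3.11.15. Probe sequences and genome positions were not used here.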

Additional observations from a re-analysis of the deposited data

Results flagged for a closer look

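Outside the main catalogue, 3 probes showed the same pattern of signal well above background on every myotube and no myoblast array. ASMM10UP291, of a smaller catalogue of 923 probes, had a mean myotube level of −2.39 ± 0.49 (SD, n = 3) and was at least 3.21-fold higher. The lincRNA-named probes mouselincRNA0499-_P1 and humanlincRNA0490-_P1, of 1836 such probes, had mean myotube levels of −2.42 ± 0.16 and −3.15 ± 0.46 (SD, n = 3 each) and were at least 3.14-fold and 1.89-fold higher. These probes play no part in the comparisons, and are given because they carry signal outside the main catalogue.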

How the results depend on the processing

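The number of members depended on the flag and on myoblast array 1. It was 365 as given, 275 with the less strict flag (86 of the 365 among them), 951 with 1 common threshold of −3.41 for all arrays (332 among them) and 1416 with detection on at least 2 myotube and at most 1 myoblast arrays. Leaving out single arrays gave 370 to 786, and could only keep or raise the count, since each array adds a condition. It was highest without myoblast array 1, on which the lowest level well above background was lower than on the other arrays. The 311 members with a bound of at least 2-fold became 156 with normexp (offset 50, on the median signal; the cause was not tested) and 329 with quantile normalization. Leaving out single arrays, with the rule applied anew, gave 320 to 472, the highest again without myoblast array 1, out of the 786 probes then taken. The count of probes called higher in limma, 8321, was 7681 with a replicate block, 7909 with the scan as a block and 6459 to 10110 without single arrays. Same-numbered arrays showed no shared deviation: their deviations correlated at −0.15, −0.0034 and −0.09, and those of differently numbered arrays at −0.12 to 0.14. With 3 arrays per group, these values cannot tell whether the cultures were paired. The mean myotube levels of the 30 named members moved by more than their SD for 21 with normexp and for 0 with quantile normalization or the series table. Leaving outlier spots out of the flags, an alternative chosen after seeing the data, gave 364 members. Dim myoblast signals limit each bound.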

Other observations

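The members were spread over the array surface. The upper left, upper right, lower left and lower right parts of equal area held 27.9%, 21.6%, 26.3% and 24.1% of them, against 24.96% to 25.06% of all catalogue probes in each. The brightest of the 8 spots around a member had a median myotube level of 3.40, and around a catalogue probe in general 3.51.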
